A study of Rattus norvegicus with 21 samples.

Results

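The genes described here are the potassium channel genes of the rat array whose symbol begins with Kcn, without Kcnv1, Kcna4, the Kv4 genes Kcnd1, Kcnd2 and Kcnd3, and their partners Kcnip1 to Kcnip4. The rule took 77 of the 22523 probes in the table, for 72 of the 81 Kcn genes it names, and used no measured value. Of these probes, 3 were listed at 0 on every array (2 of Kcnc2 and 1 of Kcna10), and each of the 72 genes kept at least 1 probe with a signal. A gene was called detected, and was tested, where a probe had a detection p below 0.01 on 10 or more of the 21 arrays. The detection p states how often the negative controls of an array are as bright as the probe. By this measure 26 genes were detected, 36.1% of the 72, against 47.7% of the 13317 named genes with a signal.

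Expression was measured on Illumina rat beadchips in total RNA from dentate gyrus areas of hippocampal slices of Wistar rats given pilocarpine to induce epilepsy. The study compared 10 areas in which in vitro electrophysiology found fast ripples (FR), which are brief and very fast field oscillations, with 11 areas in which it did not (nonFR). The areas came from 11 slices of 6 animals (P91, B9, B1, B3, B13 and B10), and 10 slices gave both kinds of area. All animals had received pilocarpine, so no group of non-epileptic rats enters any comparison. Sex, age and time after pilocarpine are not among the labels used here. The areas are mixed tissue, in which fewer cells of a type and less RNA per cell cannot be told apart.

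Potassium channels set the resting potential of neurons and glia and end each action potential. Voltage-gated alpha subunits open with depolarization, and silent subunits, beta subunits and KCNE proteins modify them. Channels opened by calcium or sodium follow spiking, while inward rectifiers and two-pore channels hold the resting potential, and in astrocytes they take part in clearing extracellular potassium. In the dentate gyrus such currents shape how sparsely granule cells fire.

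**Figure D1:**
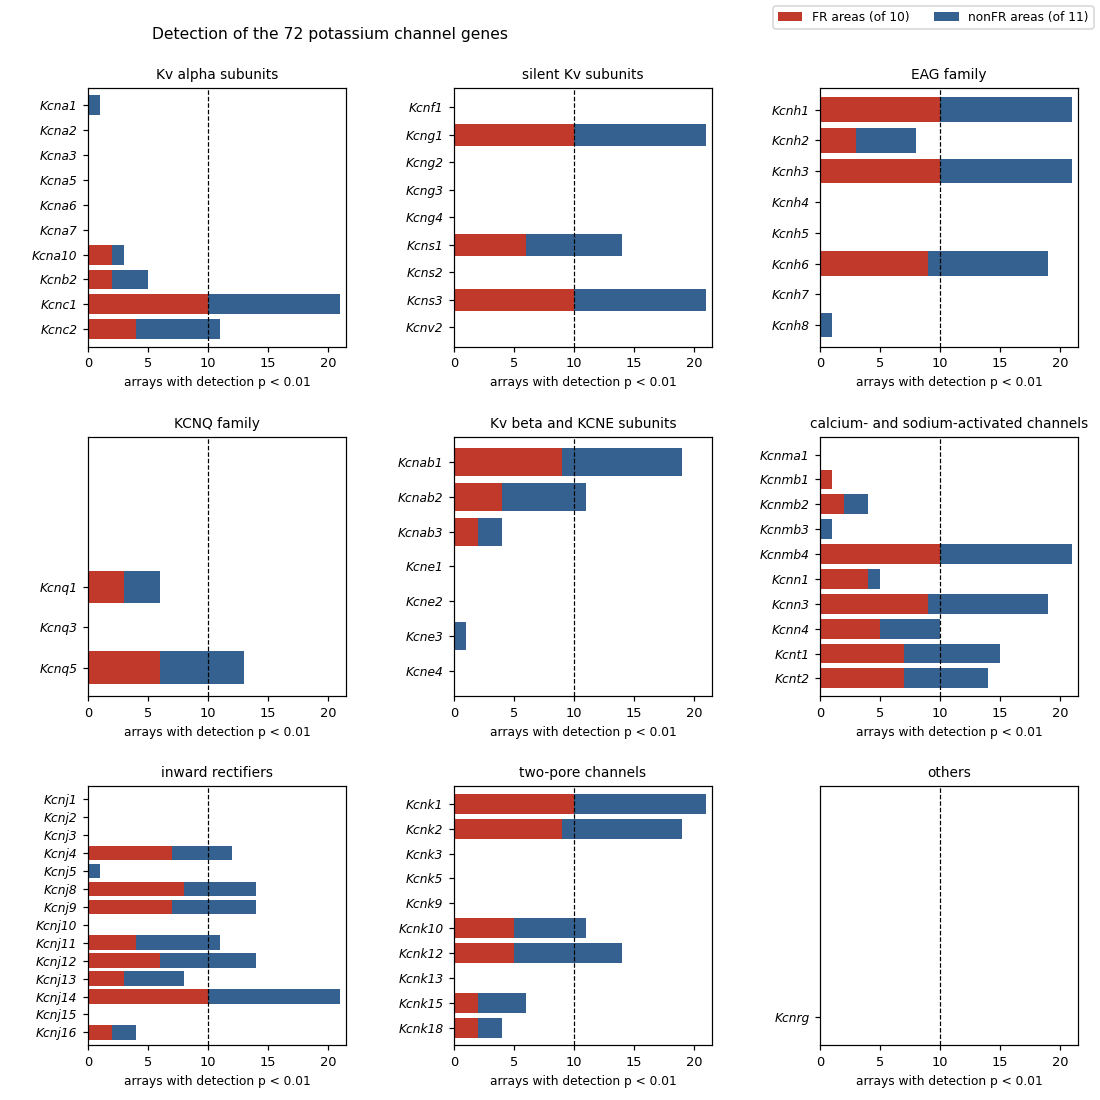
Number of arrays (of 21) on which the best-detected probe of each of the 72 genes had a detection p below 0.01, by role, with FR areas (of 10) in red and nonFR areas (of 11) in blue. The dashed line marks the 10 arrays needed for testing. 8 genes reached all 21 arrays and 29 reached none.

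The share of genes detected ran from 20% of the Kv alpha subunits to 50% of the channels activated by calcium or sodium, among roles with over 1 gene. The probes of Kcnc1, Kcng1, Kcns3, Kcnh1, Kcnh3, Kcnmb4, Kcnj14 and Kcnk1 were detected on all 21 arrays, and 18 further genes on 10 to 19. Another 17 genes were detected on 1 to 9 arrays and 29 on none. The channels activated by calcium or sodium had 5 of 10 genes tested, the inward rectifiers 6 of 14, the two-pore channels 4 of 10 and the EAG family 3 of 8. The silent Kv subunits had 3 of 9, the KCNQ family 1 of 3, the Kv beta and KCNE subunits 2 of 7 and the Kv alpha subunits 2 of 10. At the threshold, Kcnn4 was just inside with 10 arrays, and Kcnh2 and Kcnj13 were just outside with 8. The arrays detected 22.5 ± 5.52 (SD) of the 74 probes with a signal on the 10 FR arrays and 23.6 ± 6.49 (SD) on the 11 nonFR arrays, with 10 to 34 on single arrays.

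Several channels known from hippocampal neurons and glia gave no detected signal. Among the Kv alpha subunits, Kcna2, Kcna3, Kcna5, Kcna6 and Kcna7 were detected on no array, Kcna1, a subunit of axons, on 1, Kcna10 on 3 and Kcnb2 on 5. Among the silent subunits, Kcnf1, Kcng2, Kcng3, Kcng4, Kcns2 and Kcnv2 were detected on none. Kcnh4, Kcnh5 and Kcnh7 were detected on none, Kcnh8 on 1 array by 1 of its 2 probes, and Kcnq3, a subunit of the M-current, on none beside Kcnq1 on 6. Kcne1, Kcne2 and Kcne4 were detected on none, Kcne3 on 1 and Kcnab3 on 4. Kcnma1, the pore of the large-conductance calcium-activated channel, was detected on none, while its accessory subunits Kcnmb1 and Kcnmb3 were each detected on 1 and Kcnmb2 on 4, and Kcnn1 was detected on 5. Kcnj10, the main inward rectifier of astrocytes, was detected on none, as were Kcnj1, Kcnj2, Kcnj3 and Kcnj15, while Kcnj5 was detected on 1 and Kcnj16 on 4. Of the two-pore channels, Kcnk3, Kcnk5, Kcnk9 and Kcnk13 were detected on none, Kcnk18 on 4 and Kcnk15 on 6. Kcnrg, which encodes a regulator of potassium channels, was detected on none. A probe not above background does not show that its transcript is absent, since probes differ in how well they bind.

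The promoters of genes whose levels differed between animals are shown here because those genes carry the differences described below. Windows of 300 bases, 250 before and 50 after a start, were taken from RefSeq on build GRCr8 and held 50 of the 72 genes in 55 windows, among them 18 of the 26 tested genes in 22 windows. Of the 6 genes called between animals, Kcnc2 has windows with none of the motifs searched, Kcnh3 has no entry, and those of the other 4 are printed 5′ to 3′ on the strand of the gene. Capitals mark matches, on either strand, to the Sp1 letters GGGCGG or the Egr1 letters GCGGGGGCG, which overlap in Kcnq5.
Kcns1, chr3:173262297-173262596, minus strand: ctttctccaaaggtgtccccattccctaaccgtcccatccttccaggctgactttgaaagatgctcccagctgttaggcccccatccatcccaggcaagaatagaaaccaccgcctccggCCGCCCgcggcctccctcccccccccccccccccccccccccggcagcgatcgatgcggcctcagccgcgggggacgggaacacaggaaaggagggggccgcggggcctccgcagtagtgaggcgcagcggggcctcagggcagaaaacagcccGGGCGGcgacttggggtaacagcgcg
Kcns3 upstream start, chr6:39584056-39584355, minus strand: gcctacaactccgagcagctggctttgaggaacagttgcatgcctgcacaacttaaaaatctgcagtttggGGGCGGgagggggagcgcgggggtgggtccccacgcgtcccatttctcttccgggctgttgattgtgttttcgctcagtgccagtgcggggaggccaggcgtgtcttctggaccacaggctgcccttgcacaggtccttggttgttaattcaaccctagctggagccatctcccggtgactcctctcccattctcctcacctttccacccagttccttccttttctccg
Kcns3 downstream start, chr6:39583345-39583644, minus strand: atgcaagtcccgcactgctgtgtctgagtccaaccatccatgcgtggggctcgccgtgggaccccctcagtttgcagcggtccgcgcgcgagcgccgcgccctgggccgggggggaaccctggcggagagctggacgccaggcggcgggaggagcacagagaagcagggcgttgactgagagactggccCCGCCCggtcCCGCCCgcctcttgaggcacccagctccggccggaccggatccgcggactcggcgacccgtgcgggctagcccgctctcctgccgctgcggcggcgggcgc
Kcnq5, chr9:31891232-31891531, minus strand: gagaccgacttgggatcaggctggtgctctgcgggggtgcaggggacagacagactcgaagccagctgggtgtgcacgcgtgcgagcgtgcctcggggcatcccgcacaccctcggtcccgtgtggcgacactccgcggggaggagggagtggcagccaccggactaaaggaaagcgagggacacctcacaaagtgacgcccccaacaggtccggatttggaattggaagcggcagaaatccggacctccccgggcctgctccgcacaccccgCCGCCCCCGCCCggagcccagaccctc
Kcnt2, chr13:54215057-54215356, plus strand: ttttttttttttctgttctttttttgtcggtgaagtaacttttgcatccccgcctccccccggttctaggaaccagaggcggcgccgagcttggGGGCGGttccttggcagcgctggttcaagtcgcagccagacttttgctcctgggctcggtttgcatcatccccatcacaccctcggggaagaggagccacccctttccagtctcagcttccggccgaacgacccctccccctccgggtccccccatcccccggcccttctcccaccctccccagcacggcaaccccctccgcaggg

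GGGCGG stood in 12 of the 22 windows of tested genes (54.5%), in 27 of the 55 windows of all members (49.1%) and in 33.1% of the 33469 windows of all genes. The median GC content was 64.2% in the windows of tested genes and 51.7% in all windows. GCGGGGGCG was in 3 of the 22 windows (13.6%), against 2.73% of all windows. These were both windows of Kcnt1 and that of Kcnq5, where it begins at base 25 of the transcript. The cyclic AMP response element TGACGTCA and the TATA box TATAAA stood in 0 of the 22, against 1.83% and 14.2% of all windows. These matches describe the letters only, and the lack of a match says nothing of a factor.

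Before the comparison, the arrays were set against marker lists of the cell types the tissue could hold. Calb1 and C1ql2, markers of dentate granule cells, were detected on all 21 arrays, and Prox1, their defining transcription factor, on 15. The mean log2 level of the 3 tested granule cell markers, of 7 listed, was 6.63 in the FR and 6.93 in the nonFR area of the first slice of B10, below the 6.98 to 9.37 of the other arrays. Of these markers only Calb1 (7.86 and 7.87) was below all other arrays. C1ql2 (7.16 and 8.26) and Prox1 (4.86 and 4.67) lay within the range of the others, which for Prox1 was 4.30 to 6.17. In the same 2 areas the mean of the 5 tested interneuron markers, of 7 listed, was 7.98 and 8.56, above the 6.45 to 7.72 of the other arrays. Sst (6.81 and 9.26) and Lhx6 (6.52 and 7.42) were above all other arrays in both areas, and Pvalb only in the FR area. Gad1 (11.46 and 11.42) and Npy (6.8 and 8.2) lay within the range of the other arrays. The FR area of B13 followed with a granule cell mean of 6.98, against 9.37 in its nonFR area. In that slice the means of all glial and vascular lists were higher in the FR than in the nonFR area. The means were 7.91 and 6.56 for oligodendrocytes, 8.01 and 6.58 for their precursors, and 7.57 and 6.54 for microglia and macrophages. They were 9.9 and 9.6 for astrocytes, 6.77 and 5.70 for endothelium, and 6.22 and 5.34 for pericytes and smooth muscle. The lists of meninges (7.53 and 6.76) and interneurons (7.72 and 7.05) were also higher in the FR area. That of CA3 and mossy cells was lower (7.59 and 8.48). Within the lists of higher mean some markers went the other way. The astrocyte markers Slc1a3 (12.27 and 12.63) and Gja1 (12.49 and 12.64) were lower in the FR area, while Gfap was higher (12.42 and 10.64). Cx3cr1, Flt1, Dcn, Gad1 and Pvalb were also lower there. In the first slice of P91 the granule cell mean was 7.01 in the FR and 8.51 in the nonFR area. The microglia and macrophage mean, 8.16 and 7.67, was highest in that FR area. So were those of astrocytes (10.28), oligodendrocytes (8.72), their precursors (9.54), endothelium (8.54), and pericytes and smooth muscle (8.63). Results are therefore also given without the first slice of B10. None of the 4 listed markers of choroid plexus and ependyma passed the detection filter.

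None of the 26 genes differed between FR and nonFR areas past the threshold. In limma, with the animal as a block and Benjamini-Hochberg adjustment over 8211 features, 0 of 26 genes had an adjusted p below 0.05, against 0% of all features. At an unadjusted p below 0.05 the count was again 0 of 26, against 0.548% of all features. A difference of the same sign in 6 of 6 animals was found in 0 of 26 genes, against 1.27% of all features. The smallest adjusted p of the 26 was 0.9999, and unadjusted p ran from 0.265 to 0.996. The fitted difference was above 0 for 12 genes and below 0 for 14, and its median was -0.0086 log2, against 0.0058 over all features. Without both arrays of the first slice of B10 the count was again 0 of 26, and the median 0.0074. The FR and nonFR values of all 26 genes overlapped, which was not counted over all features. For 25 of the 26 the 95% interval lay within 1 log2 of 0, the exception being Kcnk2, against 95.2% of all features. Equal levels are not shown by a p above the threshold, and standard errors of 0.14 to 0.45 log2 set what could be seen.

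**Figure D2:**
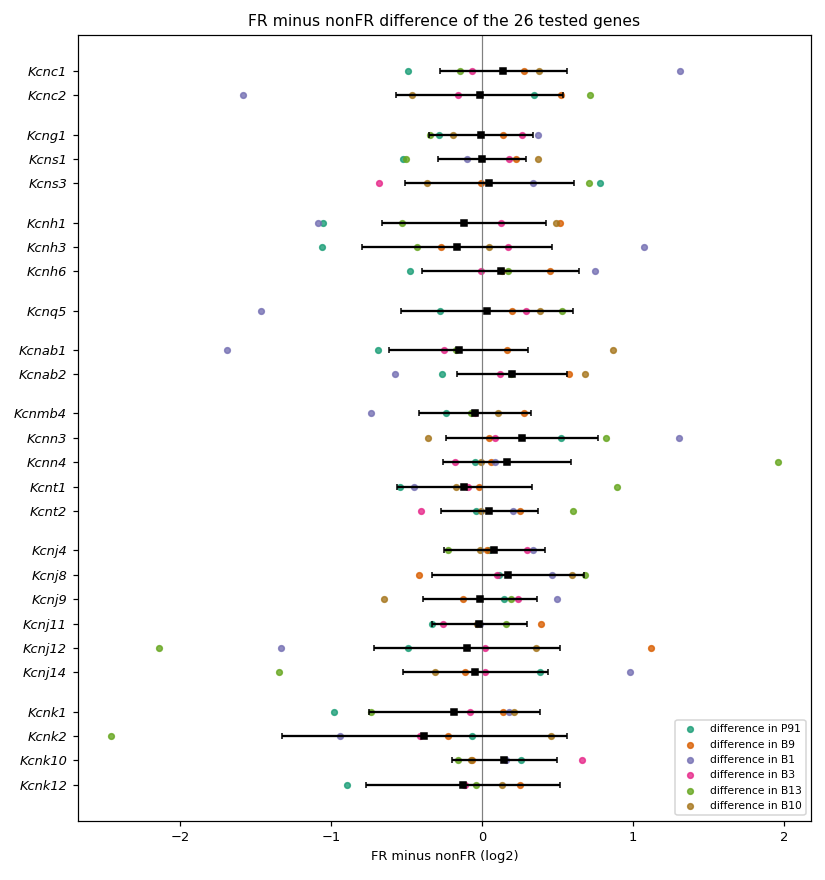
FR minus nonFR difference (log2) of the 26 tested genes, in order of role. Squares with bars are the fitted difference and its 95% interval, and coloured points are the differences within each of the 6 animals. Every interval includes 0, and that of Kcnk2 is the widest.

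The voltage-gated alpha subunits tested were Kcnc1 and Kcnc2, which form the fast channels of rapidly firing neurons. Kcnc1 had log2 levels from 5.71 to 7.63 over the FR areas (median 6.40), and from 5.68 to 6.91 over the nonFR areas (median 6.34). The highest 2 arrays were FR areas of B10 and B1, and the other values of the groups overlapped. Its difference was 0.14 log2 (SE 0.20, unadjusted p = 0.483 in limma). Kcnc2 differed by -0.014 (SE 0.27), and its probe has a fault that bears on detection. Its deposited detection p does not follow its signal, and it counted as detected on 11 arrays by the deposited p and on all 21 by the order of the signals. The Kcna10 probe has the same fault, with 3 arrays by the deposited p and 1 by the signals.

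The silent subunits form no channel alone and modify other Kv channels. Kcng1 differed by -0.0049 log2 (SE 0.17), Kcns1 by 0.00063 (SE 0.14) and Kcns3 by 0.050 (SE 0.27). In the EAG family of voltage-gated channels, Kcnh1 differed by -0.12 (SE 0.26), Kcnh3 by -0.16 (SE 0.30) and Kcnh6 by 0.13 (SE 0.25). Kcnq5, a subunit of the slow M-current that restrains repeated firing, differed by 0.034 (SE 0.27). None of these genes had the same sign in all animals.

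Of the cytoplasmic beta subunits, Kcnab1 differed by -0.15 log2 (SE 0.22) and Kcnab2 had the lowest unadjusted p of the 26. Kcnab2 ranged from 4.59 to 6.07 over the FR areas (median 4.88), and from 4.30 to 5.16 over the nonFR areas (median 4.84). The highest array, the FR area of the third slice of B9, stood alone, and the other FR values lay between 4.59 and 5.36, overlapping the nonFR values. The difference was 0.20 log2 (95% interval -0.16 to 0.56, unadjusted p = 0.265, higher in 4 of 6 animals).

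Among channels opened by calcium, Kcnn3, a small-conductance channel of neurons, had levels from 4.85 to 6.27 over the FR areas (median 6.08), and from 4.95 to 6.81 over the nonFR areas (median 5.69). The highest single value was a nonFR area, that of the first slice of B10. The difference was 0.26 log2 (95% interval -0.24 to 0.77, unadjusted p = 0.284, higher in 5 of 6 animals). Kcnn4, the intermediate-conductance channel known from blood cells and microglia, ranged from 4.23 to 6.23 over the FR areas (median 4.86), and from 4.22 to 5.59 over the nonFR areas (median 4.90). The FR area of B13 held the highest value, and its slice the widest gap of Kcnn4, 1.96 log2, against -0.18 to 0.086 in the other animals. The fitted difference of 0.17 (SE 0.20, unadjusted p = 0.416) became -0.023 without B13. The granule cell, glial and vascular means of the B13 areas, given above, moved with this gap, and their part was not tested. In the first slice of P91 Kcnn4 was 4.94 in the FR and 5.59 in the nonFR area. That FR area had the highest mean of microglia and macrophages, and also of the other glial and the vascular lists. The part of these means was not tested either. Kcnmb4, the neuronal accessory subunit of large-conductance channels, differed by -0.046 (SE 0.18). The sodium-activated channels Kcnt1 and Kcnt2 differed by -0.12 (SE 0.21) and 0.051 (SE 0.15).

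Of the inward rectifiers, 2 had a difference above 0 and 4 below 0. Kcnj8, which forms ATP-sensitive channels of vascular smooth muscle and pericytes, differed by 0.17 log2 (SE 0.24), and Kcnj11, the pore of ATP-sensitive channels of neurons, by -0.016 (SE 0.15). Kcnj4, Kcnj12 and Kcnj14, strong rectifiers, differed by 0.084 (SE 0.16), -0.095 (SE 0.29) and -0.042 (SE 0.23). Kcnj9, a subunit of G protein-gated channels, differed by -0.012 (SE 0.18). In B13 the slice difference of Kcnj12 was -2.14, the widest of the inward rectifiers, in the slice whose granule cell mean was 6.98 in the FR and 9.37 in the nonFR area. The part of these means in the Kcnj12 difference was not tested.

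Of the two-pore channels, Kcnk2, a mechanically and lipid-gated leak channel, had the largest difference of the 26 genes. Its levels ran from 4.38 to 8.99 over the FR areas (median 7.26), and from 4.70 to 8.48 over the nonFR areas (median 7.75). The 2 lowest arrays were both areas of the first slice of B10, and the highest was the FR area of its second slice. The difference was -0.38 log2 (95% interval -1.32 to 0.56, unadjusted p = 0.411, lower in 5 of 6 animals). It was -0.16 without B13, where the gap was -2.45. The granule cell means of that slice, 6.98 in the FR and 9.37 in the nonFR area, moved with the gap, and their part was not tested. The difference was -0.58 without B10 (unadjusted p = 0.0252), and -0.82 with only the first slice of each animal that had both areas (unadjusted p = 0.0223), with 0 genes past the adjusted threshold in both. Kcnk10, a related leak channel, ranged from 4.42 to 5.74 over the FR areas (median 4.93), and from 4.39 to 5.35 over the nonFR areas (median 4.76). The highest values were FR areas of B3 and B10, and the groups otherwise overlapped. Its difference was 0.15 (SE 0.17, unadjusted p = 0.384). Kcnk1, a weak inward rectifying leak channel of neurons and astrocytes, differed by -0.18 (SE 0.27), and Kcnk12, a two-pore subunit that is silent when expressed alone, by -0.12 (SE 0.31).

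**Figure D3:**
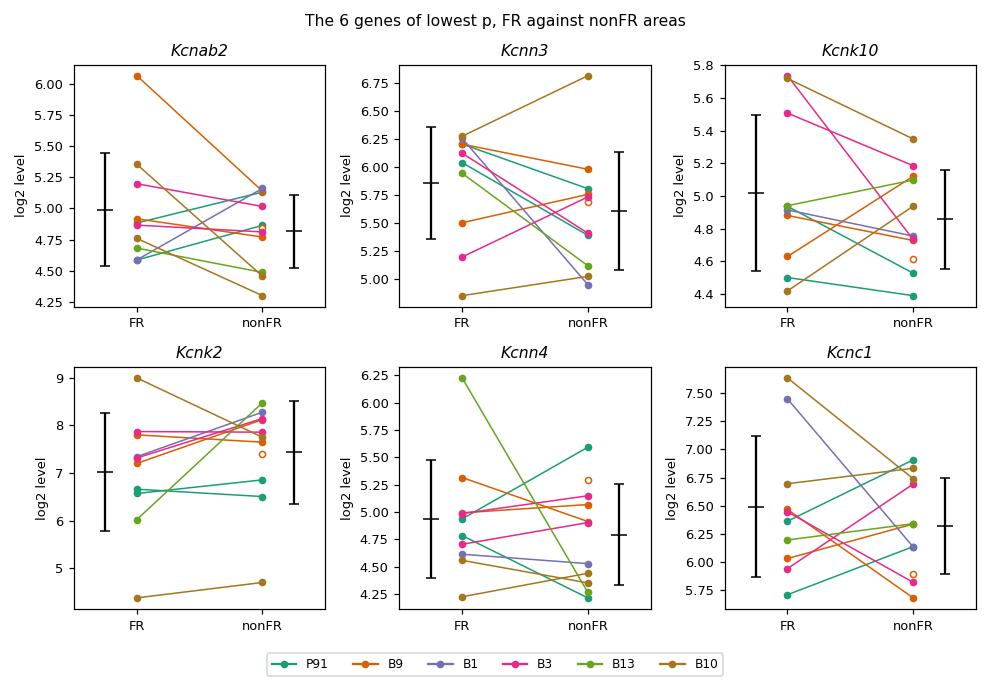
Log2 levels of the 6 genes with the lowest unadjusted p, with FR areas on the left and nonFR areas on the right of each panel and a line joining the areas of 1 slice (open circle, the slice with a nonFR area only; colours, animals). Bars at the sides are the mean and SD of 10 FR and 11 nonFR areas, and the ranges of the groups overlap in every panel.

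The animals did not point one way. The median difference of the 26 genes was -0.27 log2 in P91, with 8 genes higher in FR areas, and 0.15 in B9, with 18 higher, while it was 0.12 in B1, 0.0052 in B3, -0.054 in B13 and 0.076 in B10. Over all features the median difference stayed between -0.028 and 0.053 log2 in every animal. Quantile normalization, which gives all arrays the same distribution, holds that median near 0, so it is no yardstick for the 26 genes. Marker lists gave these median differences, FR minus nonFR in log2. The median was 0.27 for the 6 tested oligodendrocyte genes, 0.34 for 4 of oligodendrocyte precursors, 0.23 for 7 of microglia and macrophages, 0.14 for 3 of endothelium, 0.21 for 2 of pericytes and smooth muscle and 0.34 for 4 of meninges. It was 0.0021 for 8 of astrocytes, 0.063 for 5 of interneurons, -0.17 for 3 of CA3 and mossy cells and -0.44 for the 3 of granule cells. Of 45 marker entries tested 0 passed the threshold, and their part in the levels of the channels was not tested. Cspg4 stands both in the precursor list and in that of pericytes and smooth muscle, and is counted in each.

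None of the other genes of potassium handling passed the threshold between areas. Of 46 listed, which include pumps, cotransporters and channel partners, 18 were tested and 0 passed the threshold in limma, with 8 differences above 0, 10 below, and a median of -0.061 log2. The lowest unadjusted p values belonged to Fxyd1, a regulator of the sodium pump, with 0.25 log2 (p = 0.165), Senp2, a SUMO protease, with -0.29 (p = 0.195), and Atp1b1, a subunit of the sodium pump, with -0.22 (p = 0.201).

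Between animals, the levels of Kcns1, Kcnq5, Kcns3, Kcnh3, Kcnt2 and Kcnc2 differed past the threshold. These are 6 of 26 genes (23.1%), against 18.8% of all features, by a moderated F test of limma over the 6 animals, adjusted over 8211 features, so the share called was near that of the table. The F statistic had a median of 1.69 over the 26 genes and 2.12 over all features. The labels name no chip, so chip and animal cannot be told apart, and areas of a slice are not independent of each other. With slice means as units 2 of 26 were called (Kcns1 and Kcnh3), against 9.3% of all features. With the brightness of the array as a covariate 1 was called (Kcnq5), against 4.35% of all features. With the background estimated from the deposited detection p of all probes, of which some do not follow their signals, 2 were called (Kcns1 and Kcns3), against 13.4% of all features. Without B9 the count was 0, against 3.56% of all features, and without B3 it was 3 (Kcns1, Kcns3 and Kcnq5), against 8.12%. At an unadjusted p below 0.05 without B9, 5 of 26 genes passed, beside 2042 of the 8211 features. In these settings the share called fell over the whole table as well. Mean signal by animal was 264 in B9, 254 in P91, 208 in B1, 186 in B13, 169 in B3 and 104 in B10.

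Kcns1 had the highest F of the 26 genes (7.93, adjusted p = 0.00833 in limma). The arrays of B9 lay between 5.71 and 6.23 log2, and the 4 arrays of P91 between 4.99 and 5.80. The arrays of the other animals ran from 4.65 to 5.26, below all arrays of B9. Its mean was 5.97 in B9 and 4.83 in B1.

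Kcns3, the relative of Kcns1 among the silent subunits, ordered the animals otherwise (adjusted p = 0.0165). It averaged 8.01 in B10, 7.59 in B13, 6.76 in B3, 6.73 in B1, 6.10 in B9 and 6.04 in P91. In the first slice of B10 it had 8.95 in the FR and 8.81 in the nonFR area, above the 5.09 to 7.95 of every other array. With brightness as a covariate its F was 4.15 (adjusted p = 0.0941), against 6.32 without it, in a fit where calls fell over all features too.

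Kcnq5 was also highest in B10 (adjusted p = 0.0123). It averaged 6.67 in B10 and 6.64 in B13, against 4.74 in B9, the lowest animal. In B9 its detection p was 0.498 in the FR area of the first slice. It was 0.0657 in the second slice and 0.393 in the nonFR area of the third, so these values lie near background. The 2 areas of the first slice of B10 held the highest values, 7.94 in the FR and 7.23 in the nonFR area, and those of B13 followed with 6.91 and 6.38. Every other array lay between 4.29 and 5.84. Kcnt2 was also highest in the first slice of B10, with 5.97 in the FR and 6.16 in the nonFR area. It averaged 5.78 in B10 and 4.75 in P91 (adjusted p = 0.0417). In P91 it was not detected in the FR area of the first slice (detection p 0.0312) or the nonFR area of the third (0.219).

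Kcnc2 averaged 8.75 in B13 and 6.70 in P91 (adjusted p = 0.0435), and the FR area of the first slice of B10, at 9.16, was its highest array. Kcnh3, a voltage-gated channel of forebrain neurons, ran the other way, with 10.4 in B9 and 7.93 in B13 (adjusted p = 0.0310). The 2 arrays of B13 lay at 7.72 and 8.15, and those of B9 between 9.49 and 11.2, without overlap. Within the second slice of B10 the FR area of Kcnh3 was 1.86 log2 above the nonFR area, and within the first slice the difference was -1.77, against a range of 2.49 between the animal means.

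**Figure D4:**
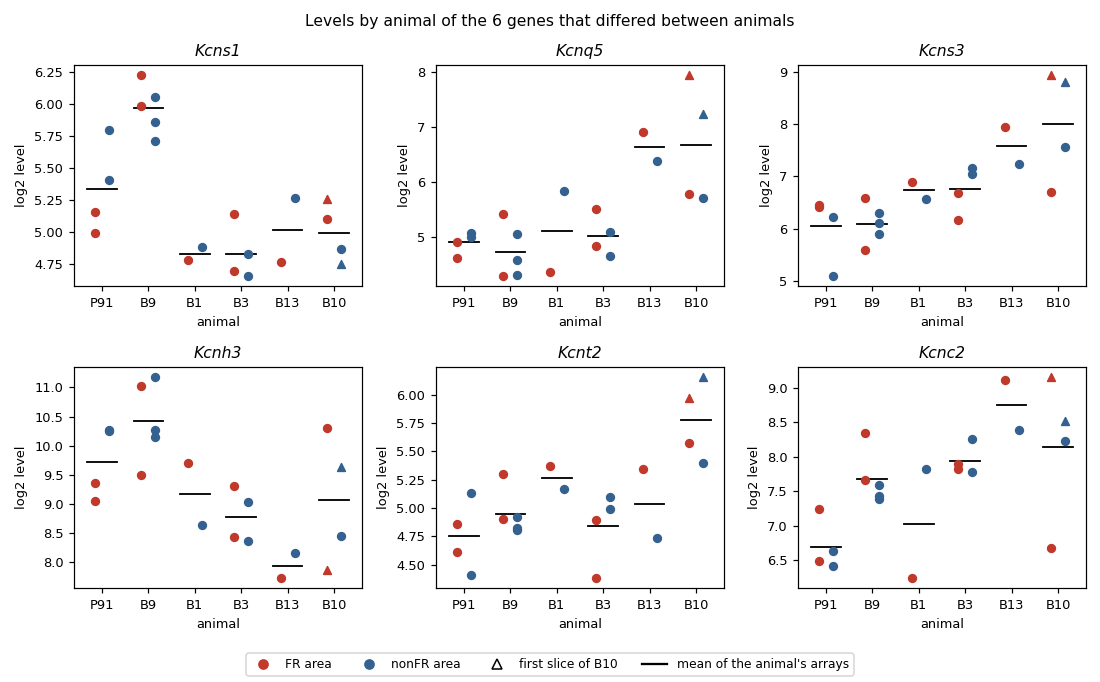
Log2 level of the 6 genes called between animals, by animal, with FR areas (red) left of nonFR areas (blue), triangles for the first slice of B10 and a line at the mean of the animal's arrays. Kcns1 is highest in B9, while Kcns3, Kcnq5 and Kcnt2 are highest in the first slice of B10.

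The first slice of B10 stood apart for other channels too. It held the highest array of 7 of 26 genes (26.9%, against 10.8% of all features) and the lowest of 5 (19.2%, against 12.6%). The highest were Kcnc2, Kcnj9, Kcnmb4, Kcnn3, Kcnq5, Kcns3 and Kcnt2, and the lowest Kcnab2, Kcnj12, Kcnj8, Kcnk1 and Kcnk2. Kcnk2 averaged 4.54 in this slice, against 6.58 to 8.37 in the other 10 slices, and Kcnk1 had 8.72 in its FR and 9.28 in its nonFR area, against 9.81 to 11.6 on the other arrays. The low granule cell mean and the high interneuron mean of this slice, given above with the markers that stayed within range, moved with these values. Their part was not tested. Without both of its arrays, 5 of 26 genes were called between animals, Kcnt2 no longer among them, against 26% of all features.

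The third slice of B9 held the highest array of another 7 genes (26.9%, against 12.6% of all features), namely Kcnab2, Kcnh3, Kcnj11, Kcnk1, Kcnk12, Kcns1 and Kcnt1, and the lowest of 0. Its FR array was the brightest of the 21, with a mean signal of 370. Kcnh3 and Kcnt1 were highest in the nonFR array of the slice, of mean signal 169, and the others in the FR array. Kcnk12 reached 7.58 log2 in that FR array, against 4.41 to 6.08 in the other FR areas and 4.56 to 6.41 in the nonFR areas. The second slice of B10 held the highest array of 4 genes and the lowest of 3, although it held 21.6% of the highest and 27.9% of the lowest arrays over all features.

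**Figure D5:**
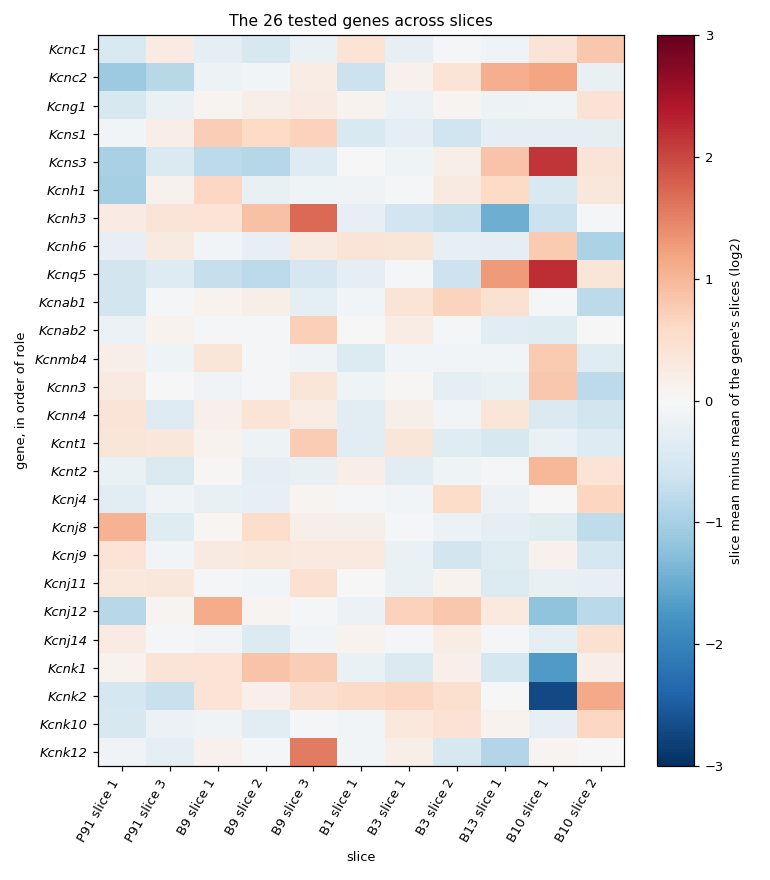
Slice mean minus the mean of the gene's slices (log2) for the 26 tested genes in the 11 slices, with genes in order of role. In the first slice of B10, Kcns3 and Kcnq5 are the most raised and Kcnk2 and Kcnk1 the most lowered, and Kcnh3 and Kcnk12 are raised in the third slice of B9.

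Of the other genes of potassium handling, 6 of 18 were called between animals, against 18.8% of all features. They were Fxyd7 and Fxyd1, regulators of the sodium pump (adjusted p = 9.48e-04 and 0.00444 in limma), the potassium-chloride cotransporter Slc12a4 (adjusted p = 0.00616), the G protein regulator Rgs7, dystroglycan Dag1, and Pex5l, a partner of HCN channels. Among the marker entries 12 of 45 were called between animals, where Cspg4, a called gene, is counted in both of its lists.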

How the data were processed

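Per the file headers, each array has a deposited column of signal, an intensity on a linear scale, and one of detection p-value. The authors also deposited processed values, whose size is that of log2 values. Lumi 2.2 is named in the submitters' processing notes. Further steps were not given in the sources used here. Of 22523 probes, 720 listed at 0 throughout were dropped.

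The deposited detection p of 644 probes (2.95%) was, on at least 1 array, no whole multiple of 1 over the number of negative controls. There were 799 to 822 negative controls per array, and the tolerance was 0.01. Such p did not follow the order of the signals in Kcnc2, which was not counted over the 644 probes. The background was therefore estimated from the other 21159 probes. This choice was made after seeing the data, and it raised the number of genes called between animals to 6, against 2 with all probes. Background correction was normal-exponential (limma 3.58.1, R 4.3.3, offset 16), followed by quantile normalization and log2, which compresses differences of dim probes.

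The filter (p below 0.01, 10 or more arrays) left 8223 probes, and the brightest per symbol gave 8211 features. FR minus nonFR was fitted two-sided in limma, with animals as blocks, and the 6 animals were compared by a moderated F test in the same fit, both with Benjamini-Hochberg adjustment at 0.05. The deviations of arrays from their group mean had a mean correlation of 0.33 within a slice (10 pairs), of 0.33 between slices of an animal and of -0.11 between animals. Mean signal per array was 101 to 370 in FR and 84.2 to 311 in nonFR areas, and the number of arrays limits the precision. P-values measure the spread between these areas. The procedure was tested on simulated data.

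Gene names come from the platform annotation. All 26 tested genes are named with their difference by role, with array values for the 6 of lowest p and the 6 of largest F. The genes and lists were chosen with earlier results of these data known.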

Additional observations from a re-analysis of the deposited data

Results flagged for a closer look

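In 52 sets of values (the levels in FR areas and the differences by animal of 26 genes), 6 held a value far from the others. A nominal rate of 1 in 20 gives 2.6, but the rate over all features was not measured. The sets share arrays and animals and are not independent, so the count is not read as an excess. The FR area of the third slice of B9 was the highest FR area for Kcnab2 (6.07 log2, the next 5.36), Kcnj11 (5.76, the next 5.18) and Kcnk12 (7.58, the next 6.08). It was also the brightest array, with a mean signal of 370, and the part of brightness was not tested for these genes. In B13 the FR minus nonFR difference was 1.96 log2 for Kcnn4, the next animal being at 0.086, and 0.90 for Kcnt1, the next at -0.020. In P91 the difference of Kcnk12 was -0.89, the next animal being at -0.12. It was -1.82 in the first slice of P91, where the granule cell mean was 7.01 in the FR and 8.51 in the nonFR area, and 0.030 in its other slice. The part of the granule cell means in this difference was not tested.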

How the results depend on the processing

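No gene, and no feature of the whole table, was called between FR and nonFR areas in limma under any of the 21 alternatives. At most 2 of the 26 genes reached an unadjusted p below 0.05 in an alternative. This was without B10, where 92 of the 8211 features did. The slice as a replicate block gave 0 called and a median difference of -0.010 log2, and no replicate block 0 and -0.024. In 528 comparisons of a gene under an alternative, 75 changed the sign of the difference, all of uncalled genes, and 6 genes kept it throughout. With only the first slice of each animal that had both areas, Kcnk12 moved to -0.61 (unadjusted p = 0.0814), against -0.12, and Kcnk2 to -0.82 (unadjusted p = 0.0223), against -0.38. The count of genes called between animals, 6 of 26 and 18.8% of all features, depended on the setting, as did the share of all features, given in parentheses. It was 2 of 8 (21.2%) when detection on all arrays was required, 1 (4.35%) with array brightness as a covariate, 2 (9.3%) with slice means and 2 (13.4%) with the background from all deposited detection p, an alternative chosen after seeing the data. It was 0 with FR areas only (0.0609%) and 0 with nonFR areas only (0.134%). Leaving out 1 animal gave 0 (3.56%, without B9) to 7 (23%, without B1). At an unadjusted p below 0.05 of the same F test, 3 genes passed with FR areas only, beside 1137 of 8211 features. With nonFR areas only 7 passed, beside 1584 features, and without B9 5 passed, beside 2042. The authors' values gave 5 (16.4%), signals without background correction 5 (18.5%) and array weights 9 (38.7%). Over the alternatives that could test them, Kcns1 was called in 14 of 18, Kcnq5 in 13 of 18, Kcns3 in 13 of 19, Kcnh3 in 11 of 19, and Kcnt2 and Kcnc2 in 7 of 18 each. The causes were not tested. By the order of the signals, 17 of 26 tested genes were below detection on at least 1 array, which limits what these arrays can show.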
